A study of Mus musculus with 4 samples.

Results

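The APOBEC and ADAR families hold enzymes that change bases in nucleic acids, and 5 of their genes were followed here: Apobec1, Apobec2, Apobec3, Adar and Adarb1. They were taken by the gene symbol of the array platform, which gave 5 genes, each with 1 probe, of 22180 genes measured. RNA came from B16-OVA, a mouse melanoma line with an ovalbumin transgene, and was measured on 4 arrays. Per the labels, 2 arrays held RNA of mock transfected cells and 2 held RNA of cells transfected with AT90ES. The treatment text, identical on every array, describes a 90mer double-stranded DNA given for 6 hours with Lipofectamine, a cationic lipid. What the mock cells were given is therefore unknown, and the DNA and the transfection cannot be told apart as sources of a difference. The labels name no genotype, clone or further agent, and do not say that replicates were separate cultures, so the spread between arrays of a group could be technical. The 5 genes were chosen by symbol with their differences between AT90ES and mock already in view. Their values are therefore a description, and p-values are given only for other genes. How many of the 5 passed the threshold used for all genes is given as a count, which supports nothing.

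Cytidine deaminases of the APOBEC family turn cytosine into uracil in RNA or in single-stranded DNA. ADAR proteins act on double-stranded RNA and turn adenosine into inosine, which is read as guanosine. Editing by Adar keeps the cell's own double-stranded RNA from being taken for viral RNA by sensors such as Ifih1. Adar is known to have several promoters, of which an interferon-inducible promoter gives the longer form of the protein, and a gene-level probe does not tell the forms apart. The arrays measured RNA levels only, and neither editing nor enzyme activity was measured.

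The stretches around the annotated gene starts are shown for Apobec1, which had the largest difference of the set, for Adar, and for Apobec3, whose window held the most matches to an interferon element while its groups overlapped. RefSeq windows of assembly GRCm38.p6, from 250 bases before to 50 bases after a start, matched all 5 genes with 8 windows. Capitals mark matches on either strand to the core of the interferon-stimulated response element, GAAANNGAAA, or to a shorter form of it, GAANNGAAA, which was added after the windows had been seen. The Apobec1 window lay at chr6:122602395-122602694 on the minus strand, that of the third Adar start at chr3:89730468-89730767 on the plus strand, and that of the first Apobec3 start at chr15:79892158-79892457 on the plus strand.
Apobec1: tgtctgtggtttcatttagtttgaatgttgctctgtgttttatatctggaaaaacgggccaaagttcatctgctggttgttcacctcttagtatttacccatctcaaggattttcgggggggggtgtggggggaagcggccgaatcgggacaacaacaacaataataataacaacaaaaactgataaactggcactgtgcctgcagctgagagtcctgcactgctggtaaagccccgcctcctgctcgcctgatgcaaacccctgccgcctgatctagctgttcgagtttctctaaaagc
Adar: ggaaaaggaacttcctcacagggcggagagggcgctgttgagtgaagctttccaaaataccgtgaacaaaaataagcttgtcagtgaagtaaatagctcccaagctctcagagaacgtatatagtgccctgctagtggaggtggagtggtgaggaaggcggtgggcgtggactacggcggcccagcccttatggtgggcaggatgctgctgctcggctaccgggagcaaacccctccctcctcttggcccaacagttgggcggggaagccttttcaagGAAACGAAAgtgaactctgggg
Apobec3: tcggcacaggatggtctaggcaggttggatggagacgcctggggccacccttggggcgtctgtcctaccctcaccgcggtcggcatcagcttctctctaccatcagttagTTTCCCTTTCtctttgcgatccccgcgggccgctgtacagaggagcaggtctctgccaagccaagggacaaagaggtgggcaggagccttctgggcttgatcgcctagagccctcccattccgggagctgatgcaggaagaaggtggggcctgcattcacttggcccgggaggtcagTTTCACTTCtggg

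The Apobec1 window held no match to either form, and none to the interferon-gamma element TTCNNNGAA, the NF-kappaB consensus or the p53 half-site consensus. The third Adar start had the shorter form at bases 29 to 37 after the start, overlapping TTCNNNGAA at bases 23 to 31, while the windows of the other Adar starts held none of the 5 patterns. The first Apobec3 start had the core at -140 to -131 and the shorter form at 38 to 46. Apobec2 had the shorter form at -124 to -116. An NF-kappaB consensus match lay at -202 to -193 of Adarb1 and at -84 to -75 of the second Apobec3 start. Of 32851 windows of the same length, 3.44% held the core, 7.52% the shorter form, 8.30% TTCNNNGAA, 8.46% the NF-kappaB consensus and 8.36% the p53 half-site consensus. The matches describe letters and show no binding.

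Apobec1 was the editing gene with the largest difference between the groups. Its enzyme edits the Apob transcript in the intestine, and in rodents also in the liver. The log2 level of Apobec1 (gene ID 11810, probe 17470580) was 5.33 and 5.85 on mock replicates 1 and 2, and 7.77 and 7.69 on AT90ES replicates 1 and 2. Both AT90ES arrays lay above both mock arrays, by 1.83 to 2.45 over the pairs of arrays, while the mock arrays themselves lay 0.53 apart. The group means were 5.59 ± 0.37 and 7.73 ± 0.06 (SD, n = 2 arrays each). The difference was 2.14 ± 0.19 on the log2 scale (SE), with a 95% interval from limma of 1.66 to 2.62, or 4.41-fold with an interval of 3.16 to 6.15. A mock gap as wide as that of Apobec1 was found in 6.21% of all genes. On mock replicate 1 the gene lay only 0.25 above the olfactory receptor percentile, the 95th percentile of a gene family presumed silent in melanoma cells. On mock replicate 2 it lay 0.92 above that percentile. The size of the difference rests in part on mock replicate 1, near background, and was 1.88 without that array. In RNA from whole cultures, more cells with Apobec1 RNA and more of it per cell cannot be told apart.

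In limma's fit over all genes, 1 of the 5 genes, Apobec1, had an adjusted p under 0.05, against 0.415% of all genes called higher and 0.0% called lower. Nothing is read from this count because the set was chosen with the contrast known. Only 33 genes, Apobec1 included, had a difference at least as high. Leaving out mock replicate 1 gave a difference of 1.88 for Apobec1, and leaving out mock replicate 2 gave 2.40. It was 2.10 when AT90ES replicate 1 was dropped and 2.18 when AT90ES replicate 2 was dropped. In both of the latter fits, whose spread comes from the mock arrays alone, the count of the 5 genes under that adjusted p was 0, and nothing is read from it either.

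**Figure D1:**
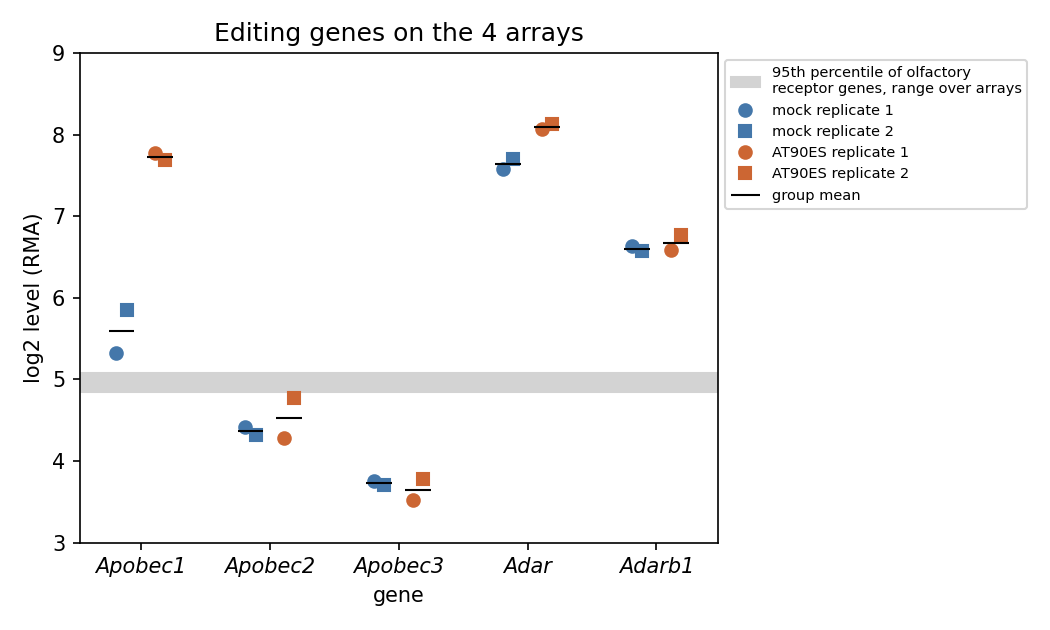
Log2 level (RMA) of the 5 editing genes on each of the 4 arrays, with mock in blue and AT90ES in orange, circles for replicate 1, squares for replicate 2 and a bar at each group mean. The grey band spans the 95th percentile of olfactory receptor genes on the 4 arrays (4.85 to 5.07). The AT90ES points of Apobec1 (7.77 and 7.69) stand clear of the mock points (5.33 and 5.85), those of Adar lie just above, and the groups overlap for the other 3 genes.

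Adar, which edits double-stranded RNA throughout the body, differed less. Its log2 level (gene ID 56417, probe 17399496) was 7.57 and 7.70 on mock replicates 1 and 2 and 8.06 and 8.13 on AT90ES replicates 1 and 2. The groups did not overlap, and the nearest arrays of different groups lay 0.36 apart, whereas the mock arrays lay 0.13 and the AT90ES arrays 0.06 apart. The means were 7.64 ± 0.09 and 8.10 ± 0.04 (SD, n = 2 each). The difference was 0.46 ± 0.12 (SE), with a 95% interval of 0.16 to 0.76, or 1.37-fold. Like the intervals of the other editing genes, this interval is not adjusted for the number of genes and is no test. Adar was not among the genes called in limma's fit over all genes. In all, 2.77% of genes had a difference at least as high. Apobec1 and Adar were the 2 editing genes whose groups did not overlap, both with AT90ES higher, a pattern found in 17.7% of all genes, while 22.1% of genes showed the opposite. The difference stayed between 0.39 and 0.52 over the 13 alternative settings, of which only centring and leaving out an array could change it.

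Adarb1, known for editing the glutamate receptor transcript Gria2 in neurons, had nearly the same level in both groups. Its log2 level (gene ID 110532, probe 17242281) was 6.63 and 6.57 on mock replicates 1 and 2 and 6.59 and 6.76 on AT90ES replicates 1 and 2. AT90ES replicate 1 lay between the mock arrays, so the groups overlapped. The difference was 0.08 ± 0.12 (SE), and its 95% interval ran from 0.850-fold to 1.31-fold. All 4 arrays lay above the olfactory receptor percentile, by 1.56 to 1.84, so the gene was measured clear of background.

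Apobec3, the only APOBEC3 gene of the mouse, encodes a restriction factor against retroviruses. Its log2 level (gene ID 80287, probe 17313050) was 3.75 and 3.70 on mock replicates 1 and 2 and 3.52 and 3.78 on AT90ES replicates 1 and 2. The AT90ES arrays lay on either side of the mock arrays. The difference was -0.08 ± 0.14 (SE), with a 95% interval of 0.748-fold to 1.20-fold. Set against the olfactory receptor percentile, all 4 arrays lay lower, at -1.33 to -1.15 relative to it, and a change near background could go unseen.

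Apobec2, a relative known from skeletal and heart muscle, was likewise dim. Its log2 level (gene ID 11811, probe 17345797) was 4.41 and 4.32 on mock replicates 1 and 2 and 4.28 and 4.77 on AT90ES replicates 1 and 2. The AT90ES arrays lay 0.49 apart, a gap matched in 6.28% of genes, and enclosed the mock values. The difference was 0.16 ± 0.19 (SE), with a 95% interval of 0.810-fold to 1.54-fold. It turned to -0.09 without AT90ES replicate 2 and was 0.40 without AT90ES replicate 1, so its direction rested on a single array. Under the olfactory receptor percentile on all 4 arrays lay Apobec2 and Apobec3, against 38.2% of all genes.

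**Figure D2:**
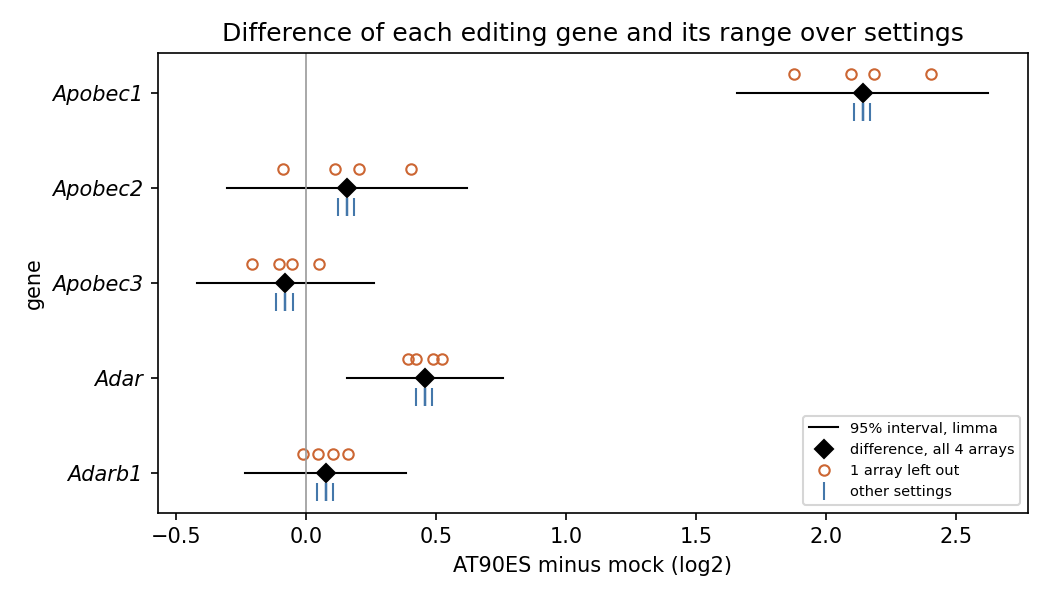
Difference of AT90ES minus mock (log2) for each editing gene, with diamonds for the difference on all 4 arrays, bars for its 95% interval from limma, open circles for the 4 fits without 1 array and ticks for the other settings. The values of Apobec1 run from 1.88 to 2.40 and those of Adar from 0.39 to 0.52, while those of Apobec2, Apobec3 and Adarb1 fall on both sides of 0.

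**Figure D3:**
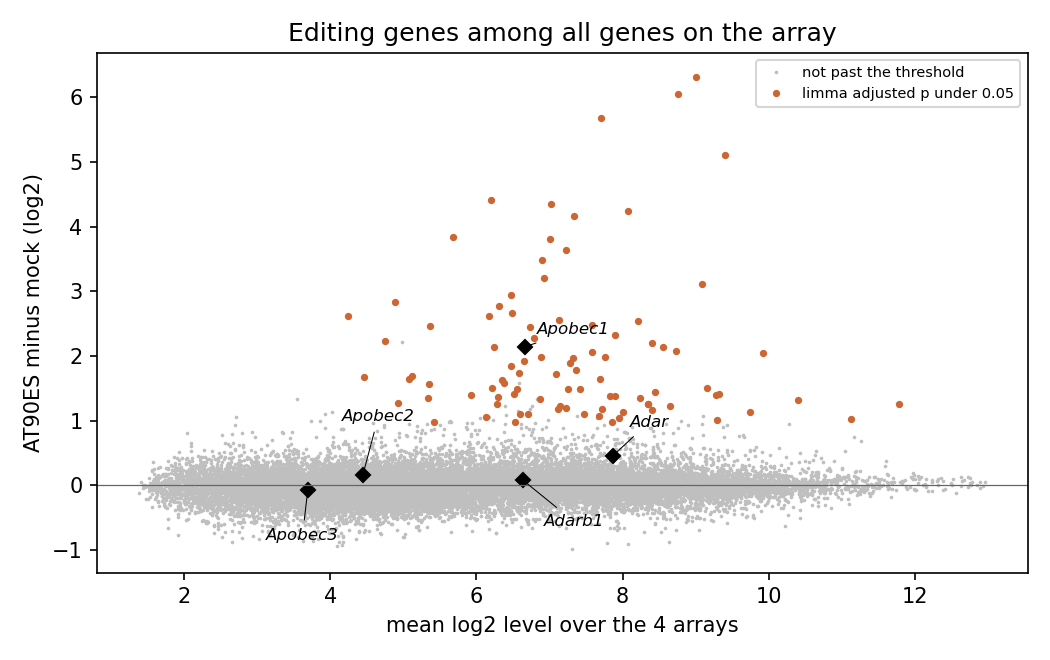
Difference of AT90ES minus mock (log2) against the mean log2 level over the 4 arrays for 22180 genes, with the 92 genes past limma's threshold in orange and the editing genes as black diamonds. Apobec1 lies at 2.14, a height that 33 genes reach, itself included, and Adar at 0.46, a height that 615 genes reach. The other 3 lie between -0.08 and 0.16.

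Of genes with approved symbols, those whose 4 values, each less the gene's own mean, lay nearest to those of Apobec1 were Tnfrsf10b, Rhbdf2 and Tapbp. Tnfrsf10b, a death receptor, had log2 levels of 6.23 and 6.86 on mock and 8.71 and 8.52 on AT90ES arrays, at a Euclidean distance of 0.12. Rhbdf2, an inactive rhomboid protein, had 6.56 and 6.98 on mock and 8.70 and 8.80 on AT90ES arrays, at a distance of 0.22. Tapbp, which helps load peptide onto MHC class I, had 7.18 and 7.42 on mock and 9.50 and 9.51 on AT90ES arrays, at a distance of 0.23. In each of these 3 genes, as in Apobec1, mock replicate 1 was the lowest of the 4 arrays. They were picked for this likeness, over 4 arrays, which are too few for a correlation.

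The measured protein-coding genes next to the 5 editing genes in the RefSeq order, looked up after the levels were seen, did not pass. Limma called 0 of 10 such neighbours higher or lower, with 1 higher and 0 lower at an unadjusted p under 0.05, a level at which 4.5% of all genes were higher and 4.59% lower. Mfap5 and Gdf3, the nearest measured genes on either side of Apobec1, each stood at 0.07, with log2 levels of 4.77 and 4.85 on mock and 4.74 and 5.02 on AT90ES arrays for Mfap5. Kcnn3 and Chrnb2, around Adar, stood at -0.22 and 0.08. Over the 10 neighbours the differences ran from -0.30 to 0.34.

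Other deaminases did not pass. This list holds relatives of the 5 editing genes and the deaminases of free nucleosides and nucleotides. Of its 13 measured genes, limma called 0 higher and 0 lower, also 0 at an unadjusted p under 0.05. The differences ran from -0.16 to 0.25. The median was 0.02, against -0.02 over all genes. Dctd, which deaminates deoxycytidylate, stood at -0.16 (limma adjusted p = 0.765), and Ampd2, which deaminates AMP, at -0.07 (adjusted p = 0.923). Of the 13, 5 lay under the olfactory receptor percentile on all arrays.

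Proteins that assist or regulate editing did not pass either. Of 12 measured, 0 were higher and 0 lower in limma, with 0 at an unadjusted p under 0.05 and a median of 0.01. Hnrnpab, an RNA-binding partner of Apobec1, stood at -0.07 (limma adjusted p = 0.896), and Dhx9, a helicase that unwinds double-stranded RNA, at -0.09 (adjusted p = 0.855). The Apobec1 cofactors A1cf and Rbm47, named after their values were seen, had mean log2 levels of 2.99 and 3.50 in mock and 3.20 and 3.26 in AT90ES cells. Both were under the olfactory receptor percentile on all 4 arrays, the only 2 of this list that were.

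The RNA levels of known editing targets were also compared. Of 25 measured, limma called 0 higher and 0 lower, with a median of 0.01. At an unadjusted p under 0.05, 2 were higher and 2 lower, against 4.5% and 4.59% of all genes. B2m, the MHC class I light chain and an Apobec1 target in macrophages, had log2 levels of 11.48 and 11.40 on mock and 11.79 and 11.69 on AT90ES arrays, a difference of 0.30 (limma adjusted p = 0.546). Copa, a coat protein of transport vesicles, stood at 0.04 (adjusted p = 0.948). Named after their values were seen, Blcap, an Adar target, stood at 0.51, Apob, which carries the site Apobec1 is named for, at -0.43, and Gria3 at -0.42. Apob and Gria3 lay under the olfactory receptor percentile on all 4 arrays, and Blcap lay above it on only 2. These 3 differences are therefore of levels at or near background. Gria2, the best known target of Adarb1 and also named outside the rule, was dim, with 3.49 in mock and 3.57 in AT90ES cells.

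Uracil is the product of cytidine deaminases, and the genes listed for its excision from DNA and the repair around it did not pass. Of 9 measured genes, limma called 0 higher and 0 lower, with a median of 0.01. At an unadjusted p under 0.05, 0 were higher and 2 lower, against 4.5% and 4.59% of all genes. Samhd1, which degrades deoxynucleotides, stood at 0.10 (limma adjusted p = 0.848), and Dut, which keeps uracil out of DNA by destroying dUTP, at -0.39 (adjusted p = 0.461). Ung, the main uracil glycosylase, named after its value was seen, had log2 levels of 6.27 and 6.17 on mock and 5.76 and 5.79 on AT90ES arrays, and stood at -0.45 (adjusted p = 0.375).

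The list of sensors of double-stranded RNA, the molecule that Adar edits, held most of the changed genes in the related lists. It also counts Mavs, an adaptor rather than a sensor, named here outside the rule. Of the list's 13 measured genes, 6 rose, 0 fell and 7, Mavs included, did not pass in limma. The median was 0.73, and 0.415% of all genes were called higher. At an unadjusted p under 0.05, 10 were higher and 1 lower, Oas2 at -0.33, named after its value was seen. The shares over all genes at that level were 4.5% higher and 4.59% lower. Ifih1, the sensor of long double-stranded RNA, had log2 levels of 4.50 and 5.22 on mock and 10.56 and 10.53 on AT90ES arrays and rose by 5.69 ± 0.24 (SE, limma adjusted p = 0.00137). Ddx58, which encodes RIG-I, rose by 3.49 ± 0.13, Oasl1, an oligoadenylate synthetase-like protein, by 2.95 ± 0.13, and its relative Oasl2 by 2.62 ± 0.19. Ifih1 on mock replicate 1, and Oasl1 and Oasl2 on mock replicate 2, lay under the olfactory receptor percentile. The sizes of these rises therefore start near background. Eif2ak2, which encodes PKR, the kinase that double-stranded RNA activates, was named after its value was seen and stood at 0.73 (adjusted p = 0.197). Oas genes have close relatives on the array, and their levels are uncertain where probes hybridise to several. Without AT90ES replicate 1, 3 sensors were called, and 3 without AT90ES replicate 2. The list, of 15 genes, was compiled with earlier results of these data known.

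Of 10 measured genes on the path from the interferon receptor to the factor complex that binds the interferon-stimulated response element, 2 rose, 0 fell and 8 did not pass in limma, with a median of 0.27. At an unadjusted p under 0.05, 5 were higher and 0 lower. Over all genes, limma called 0.415% higher, and 4.5% were higher and 4.59% lower at that unadjusted level. Stat2 rose by 1.98 ± 0.12 (SE, limma adjusted p = 0.00389) and Irf9 by 1.26 ± 0.13 (adjusted p = 0.0309). Both are subunits of that complex. With each of the 4 arrays left out in turn, 1 gene was called, which was Stat2 each time, and Irf9 passed in 0 of these 4 fits. Among the 8 genes of the related lists that rose, 6 had RefSeq windows, of which 3 held GAAANNGAAA and 4 held GAANNGAAA, against 3.99% and 8.68% of the 27025 genes with a window. These 8 genes came from lists compiled with earlier results of these data known, and were kept because they rose. The comparison of shares therefore supports nothing. Ifih1, Ddx58 and Stat2 carried the core. Among the editing genes, Apobec3 carried both forms at a difference of -0.08, Apobec2 the shorter form at 0.16 and Adar the shorter form at 0.46, while Apobec1 and Adarb1 carried neither.

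**Figure D4:**
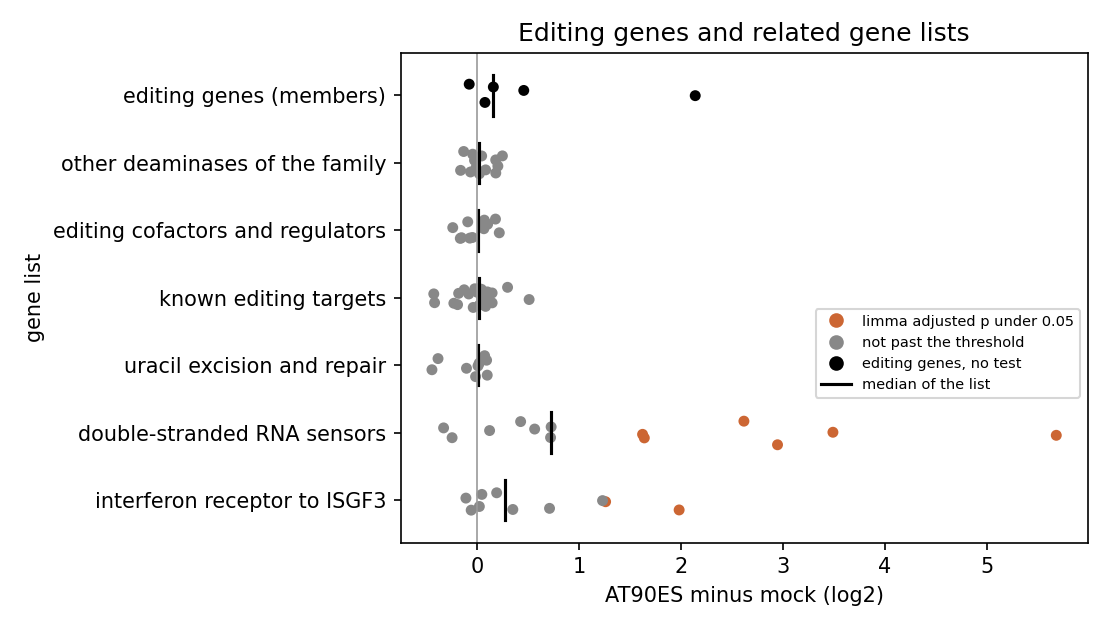
Difference of AT90ES minus mock (log2) for each measured gene of the editing set and of 6 related lists, with the editing genes in black, listed genes past limma's threshold in orange, the others in grey and a bar at each list's median. The orange points are 6 double-stranded RNA sensors and 2 genes, Stat2 and Irf9, of the list from the interferon receptor to its factor complex. The 4 related lists with no orange points lie between -0.45 and 0.51.

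Pigment cell markers were present in both groups. Of 9 melanocyte markers, 8 lay above the olfactory receptor percentile on all 4 arrays, led by Dct and Tyrp1, whose differences were -0.04 and 0.01, and limma called 0 higher and 0 lower, with 0 and 1 at an unadjusted p under 0.05. Of 44 measured markers of 6 other cell types, among them muscle, intestinal epithelium, neurons, myeloid cells and lymphocytes, 16 lay above that percentile on all arrays and 20 under it on all. Limma called 0 of the 44 higher or lower, with 0 higher and 2 lower at an unadjusted p under 0.05, against 4.5% and 4.59% of all genes. Their groups did not overlap in 2 genes with AT90ES higher and in 14 with AT90ES lower, where the shares over all genes were 17.7% and 22.1%. Their part in the differences of the editing genes was not tested.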

How the data were processed

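The authors deposited log2 values for 41345 probes on each array. Per the submitters' processing notes, RMA produced them. Software and settings are not given in the sources used here. Labelling started from 300 ng of total RNA, as the labels' protocols state. RMA equalises arrays, so a difference is relative to the other genes. Array medians ran from 4.83 to 4.91, and r across genes was 0.992 and 0.993 within groups and 0.987 to 0.989 between them. Precision is limited by the number of arrays.

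Probes were named from the platform table, and 23521 had 1 symbol. The probe with the highest mean stood for a gene. AT90ES and mock were compared with limma 3.58.1 (lmFit, eBayes, R 4.3.3) on all 4 arrays, with Benjamini-Hochberg adjustment over 22180 genes and a two-sided threshold of 0.05. No gene was filtered. An exact permutation test of 2 against 2 arrays cannot give a p under 0.333. The 5 genes, the lists and the naming rule were chosen with earlier results of these data known. The rule took all 5 genes, up to 4 risen or fallen genes of each related list by size or else the 2 with the highest mean level, and the 3 genes most like Apobec1. Markers of other cell types were counted only. Genes named outside the rule are said to be so. The fit was tested on simulated data with 200 of 22180 genes changed, where it recovered 92.7% of genes changed 2-fold and 21.4% of those changed 1.5-fold, and 7.47% of calls were false. The simulated noise used variances that limma had already shrunk, which differ less between genes than the observed ones. These shares therefore describe the simulation and need not hold for the real arrays. Alternatives were other probe summaries, centring, a filter on dim probes, an intensity trend, a robust spread, the replicate number as a block and leaving out each array.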

Additional observations from a re-analysis of the deposited data

How the results depend on the processing

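The count of the 5 editing genes with an adjusted p under 0.05 and AT90ES higher was 1 on all 4 arrays, 2 with an intensity trend (Apobec1 and Adar) and 0 to 1 without an array, and supports nothing, since the set was chosen with the contrast known. Over 13 settings the difference of Apobec1 ran from 1.88 to 2.40, and those of Apobec1 and Adar were positive in all 13. Apobec2 was positive in 11 of its 12 settings, Apobec3 in 1 of 12 and Adarb1 in 12 of 13. With 1 probe per gene, only centring and leaving out an array could change a difference. The other settings repeated the difference of limma's fit over all genes, so these counts are not repeated support. With dim probes left out, Apobec2 and Apobec3 were not in the fit.

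Over all genes, 92 were higher and 0 lower, against 159 and 7 with dim probes left out, 431 and 162 with an intensity trend, and 127 and 1 with arrays centred on their median. Without 1 array, 32 to 47 were higher. Double-stranded RNA sensors numbered 3 to 5 without 1 array. Genes on the path from the interferon receptor to its factor complex numbered 4 with dim probes left out and 4 with an intensity trend. The causes were not tested, except that leaving out an array leaves fewer samples.

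Replicate numbers did not pair the arrays: deviations of same-numbered arrays correlated at -0.22. The replicate block called 85 genes higher, 1 of the 5 editing genes, 6 sensors and 3 genes of the interferon path. The crossed pairing, added after seeing the data, called 59, 1, 5 and 1.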
